A study of Caenorhabditis elegans with 8 samples.

Results

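In the nematode Caenorhabditis elegans, 74 of 20191 genes (0.367%) drew abundant small RNA reads in every library and gave similar levels in zsp-1 mutant and wild-type animals. They were chosen by 4 conditions. Each gene had at least 500 RPM (reads-per-million of the reads assigned to genes) in all 8 libraries, and the lower of the mean of the 4 mutant libraries and the mean of the 4 wild-type libraries was at least 0.8 times the higher. The gene lay on an autosome, and a set of named families and genes was left out (the fbx, bath, nhr, npp, rpl, rps, mut, glh and pgl genes, csr-1, C38D9.2, B0250.8, ZK1067.2 and Y45G5AM.2). Of 174 genes at or above the floor in all 8 libraries, 159 were autosomal and 13 of these were left out by name, 7 of them with a ratio inside this range. Of the 146 that remained, 74 were inside the range, 28 were above it and 44 were below it. Another 15 abundant genes lay on the X chromosome, 11 of them with a ratio inside the range. Because measured genotype means chose the members, their genotype values are given below as a description.

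The zsp-1 mutant was strain YY1683 and the wild type was N2. The genotype label of YY1683 writes zap-1(-) where the series title writes zsp-1, and the gene is named pid-2 in the count files. Both strains were grown at 20 °C on HT115 bacteria that either expressed double-stranded RNA of oma-1 (oma-1 RNAi) or carried the empty vector L4440. There were therefore 4 groups of 2 libraries: mutant on oma-1 RNAi, mutant on L4440, wild type on oma-1 RNAi and wild type on L4440. The labels describe whole animals as adults on day 1 that carried eggs, while the extraction text calls them young adults. The labels do not state whether a group's 2 libraries were separate cultures, and the p-values below therefore measure the spread between these libraries only.

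Many abundant small RNAs of the germline in this animal are antisense siRNAs of the 22G class, which RNA-dependent RNA polymerases copy from messenger RNA templates and which Argonaute proteins bind. Different Argonautes carry them into different routes: the WAGO proteins are known for silencing, and CSR-1 is known for loading siRNAs against genes that the germline expresses. ZSP-1 (PID-2) is a protein of Z granules, perinuclear bodies that lie beside P granules in germ cells and hold WAGO-4 and the helicase ZNFX-1. Small RNAs of about 18 to 35 nt were cut from a gel and cloned by a method that does not depend on a 5′ monophosphate, so that the triphosphorylated siRNAs could enter the libraries.

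The libraries held between 136908 and 340932 reads assigned to genes, so that 1 read was worth 2.93 to 7.30 RPM and the floor of 500 RPM stood for 68.5 to 170 reads. Reads on pid-2 itself were 39.4 and 23.2 RPM in mutant libraries on oma-1 RNAi and 41.1 and 14.6 RPM in mutant libraries on L4440, against 418 and 341 RPM in wild type on oma-1 RNAi and 531 and 304 RPM in wild type on L4440. The food label was checked on oma-1, which lay between 11128 and 21451 RPM in the 4 libraries on oma-1 RNAi and between 123 and 187 RPM in the 4 on L4440. A list of 25 germline-enriched genes summed to 4171 to 5194 RPM in mutant libraries and 4543 to 6107 RPM in wild-type libraries, with no gene at 0 in all 8. Muscle markers summed to at most 26.4 RPM in mutant and 43.2 RPM in wild-type libraries, and 7 of 13 were at 0 in all 8 (mlc-1, mlc-3, myo-1, myo-2, myo-3, tni-3 and tnt-2). Intestine markers summed to at most 28.97 RPM in mutant and 7.41 RPM in wild-type libraries, and 4 of 14 were at 0 in all 8 (act-5, mtl-1, mtl-2 and vit-3). Cuticle and hypodermis markers summed to 1103 to 1570.0 RPM in mutant libraries and 621 to 1008 RPM in wild-type libraries, with 5 of 13 at 0 in all 8, and neuron markers to 245 to 438 RPM in mutant and 130 to 256 RPM in wild-type libraries, with 1 of 13 at 0 in all 8. Sperm genes summed to 1511 to 2323 RPM in mutant and 693 to 1541 RPM in wild-type libraries, with 19 of 60 at 0 in all 8. No member belongs to these 3 lists, and their part in the members' values was not tested. In whole animals, fewer germ cells and fewer siRNAs per cell cannot be told apart.

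The 74 genes together took 10.45% and 10.13% of the reads in mutant libraries on oma-1 RNAi and 10.46% and 10.45% in mutant libraries on L4440. In wild type they took 10.96% and 11.01% on oma-1 RNAi and 9.72% and 11.36% on L4440. The lowest and the highest share were both found in wild type on L4440. Mean levels over the 8 libraries ranged from 595 to 10330.2 RPM, with a median of 1019 RPM. Among the members, 37 had means of 500 to 1000 RPM, 26 of 1000 to 2000 RPM, 8 of 2000 to 3000 RPM and 3 above 3000 RPM. The ratio of mutant to wild type had a median of 0.968 and ran from 0.8002 to 1.23, with 28 members above 1, 46 below 1 and 26 within 0.05 of 1. These ratios rest on scaling to library totals. In edgeR fits the members' median log2 difference, mutant over wild type, was -0.04 with library totals. It was 0.05 with TMM scaling, which the tests below use, and 0.09 with DESeq2 size factors. Which genotype was higher by this small margin thus depended on scaling. The 12 members with the highest means in the mutant were the same 12 genes as in wild type. The limit on the ratio favours such agreement, so nothing is read from it.

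**Figure D1:**
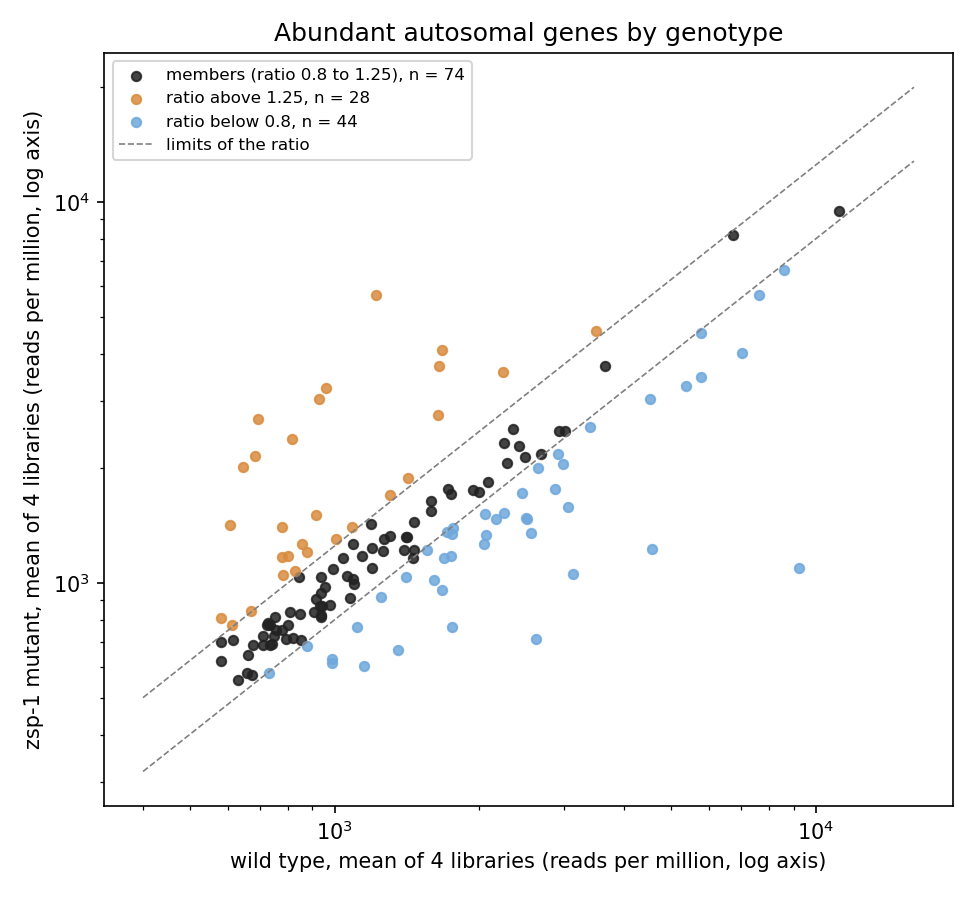
Mean level in the zsp-1 mutant (vertical axis, 4 libraries) against wild type (horizontal axis, 4 libraries), in RPM on log axes, for the 146 abundant autosomal genes. The 74 members (black) lie between the dashed lines, which are the limits of the ratio that chose them (0.8 and its inverse), the 28 genes with a higher ratio lie above them and the 44 with a lower ratio below.

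The gene with the most reads was Y71A12B.10, a protein-coding gene on chromosome I (13957199 to 13960440, WBcel235). It had 8947 and 10602 RPM in mutant libraries on oma-1 RNAi and 7304 and 11029 RPM in those on L4440, against 10701 and 13573 RPM in wild type on oma-1 RNAi and 7631 and 12855 RPM in wild type on L4440. In all 4 groups the library numbered 1 was the lower one, and the genotypes overlapped. Next came sqst-1 (chromosome IV, 12034252 to 12037051), which encodes the p62-like receptor of selective autophagy, with 7519.6 and 7827 RPM in the mutant on oma-1 RNAi and 8189 and 9298 RPM on L4440, against 6529 and 7251 RPM in wild type on oma-1 RNAi and 5413 and 7790.1 RPM on L4440. Its mutant libraries were mostly higher, with 1 wild-type library on L4440 inside their range. On oma-1 RNAi alone its ratio was 1.114, and on L4440 alone it was 1.32, outside the range that the mean of both foods satisfied.

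The third gene above 3000 RPM was saeg-2 (chromosome III, 9240337 to 9242514), whose product acts with the cGMP-dependent kinase EGL-4. It averaged 3719.5 ± 483 RPM in mutant libraries and 3641 ± 382 RPM in wild-type libraries (SD, n = 4 each). Next followed Y105E8A.28, with 2502 ± 178 RPM in the mutant and 3019.8 ± 503 RPM in wild type, and Y37H9A.2, which RefSeq annotates as a pseudogene, with 2504 ± 341 RPM in the mutant and 2934 ± 623 RPM in wild type. Both lie on chromosome I, and their mutant and wild-type libraries overlapped. Among the short genes, K08F11.1 averaged 2181 ± 312 RPM in the mutant and 2682 ± 458 RPM in wild type, and T26E3.7 averaged 2286 ± 467 RPM in the mutant and 2418 ± 541 RPM in wild type. Neither carries a gene name in the files, and 27 of the 74 members have only a sequence name there. The gene snrp-200 encodes a helicase of the U5 small nuclear ribonucleoprotein of the spliceosome, and it averaged 2068 ± 521 RPM in the mutant and 2282 ± 364 RPM in wild type. Y52B11A.11 closed the 12 most abundant members with 1835 ± 206 RPM in the mutant and 2086 ± 450.0 RPM in wild type.

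Among the gene lists used here, the one of cell division genes held the most members. The lists differ in size and were chosen with earlier results of these data known, so nothing is read from this rank. Of 136 measured genes in a list of cell division genes, 11 were members, and no other gene of the list was an abundant autosomal gene with a ratio outside the range. The members serve different parts of the spindle and the chromosomes. Microtubule regulators were represented by cls-2, a CLASP protein of the kinetochore and central spindle, and by klp-7, a kinesin-13 that depolymerizes microtubules. On cls-2 there were 2816 and 2033 RPM in the mutant on oma-1 RNAi and 2414 and 2052 RPM on L4440, against 2753 and 1964 RPM in wild type on oma-1 RNAi and 2196 and 2095 RPM on L4440. For klp-7 the mutant libraries held 2080.2 and 1738 RPM on oma-1 RNAi and 1604 and 1607 RPM on L4440, and the wild-type libraries held 2187 and 1560.0 RPM on oma-1 RNAi and 2269 and 1728 RPM on L4440. At both genes the values of the genotypes overlapped, and the 2 libraries of each group on oma-1 RNAi differed by more than the genotype means did.

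Motor genes came next. The kinesin-12 gene klp-18, needed for the acentrosomal meiotic spindle, had 1936 and 1211 RPM in the mutant on oma-1 RNAi and 1634 and 986 RPM on L4440, against 1834 and 1223 RPM in wild type on oma-1 RNAi and 1541 and 1248 RPM on L4440. Replicate 1 was the higher library in all 4 groups, and the genotype means differed by a ratio of 0.986. The chromokinesin gene klp-19 averaged 839.9 ± 187 RPM in the mutant and 809 ± 252 RPM in wild type, and the dynein heavy chain gene dhc-1 averaged 872 ± 161 RPM in the mutant and 931 ± 154 RPM in wild type (SD, n = 4 each). The kinesin-14 genes klp-16 and klp-15 averaged 786 ± 165 and 691 ± 39.4 RPM in the mutant and 726 ± 209 and 743 ± 57.2 RPM in wild type, in the same order. These 2 genes are near-identical copies, and how reads that match both were divided is not given in the sources used here, so the level of each one is uncertain.

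The other cell division members act on chromosomes and the cell cycle. INCENP, the scaffold of the chromosomal passenger complex, is encoded by icp-1, which averaged 996 ± 184 RPM in the mutant and 1098 ± 184 RPM in wild type. The cyclin-dependent kinase gene cdk-1 averaged 872 ± 149 RPM in the mutant and 940.1 ± 230.0 RPM in wild type. Its ratio was 1.12 on oma-1 RNAi and 0.767 on L4440, so that it was outside the range on L4440 alone. Polo-like kinase 1 is encoded by plk-1, with 775 ± 71.6 RPM in the mutant and 725 ± 70.1 RPM in wild type, and centromeric histone H3 by hcp-3, with 648 ± 45.6 RPM in the mutant and 662 ± 131 RPM in wild type. The exons of hcp-3 overlap those of F58A4.6 on the opposite strand, and those of klp-19 overlap Y43F4B.5 on the opposite strand. Whether the counting used strand is not given in the sources used here, so reads of such partners cannot be told apart.

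**Figure D2:**
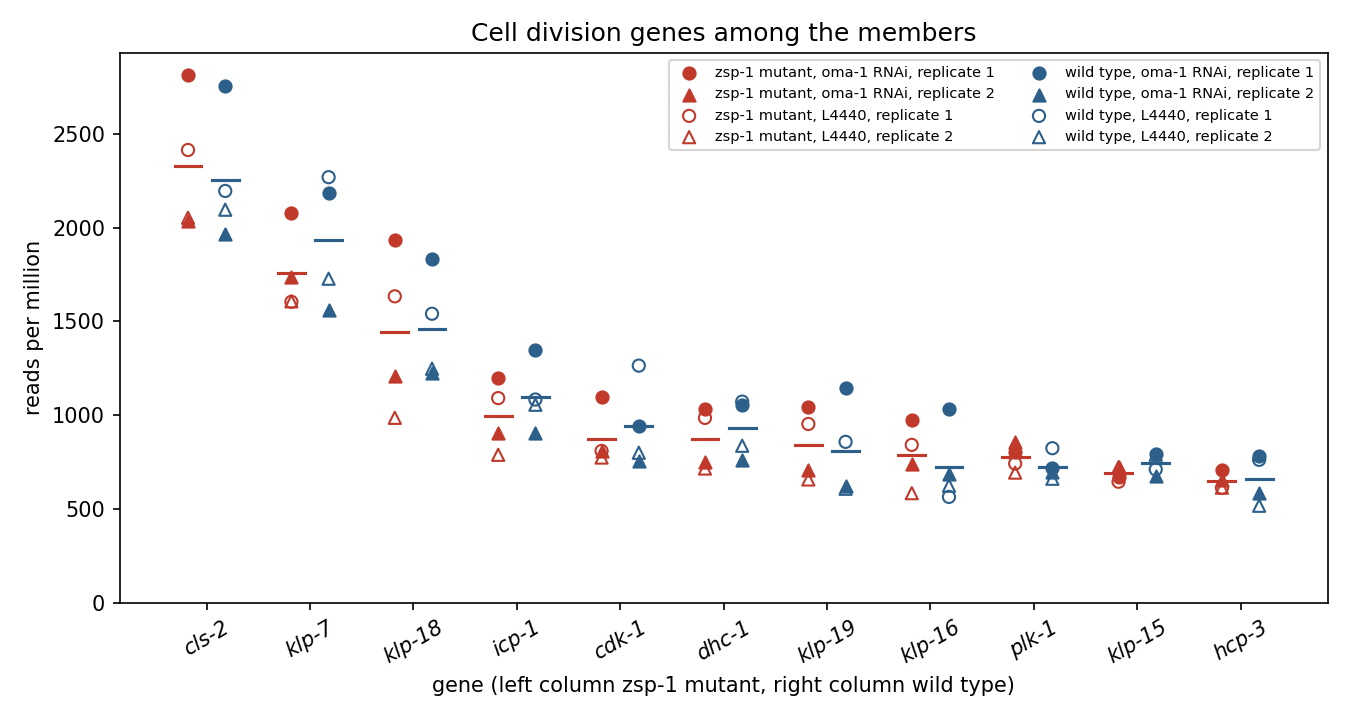
Small RNA level (RPM) at the 11 cell division genes among the members, with the 4 zsp-1 mutant libraries (red) left of the 4 wild-type libraries (blue) at each gene and a bar at each mean. Filled symbols are oma-1 RNAi, open symbols L4440, circles replicate 1 and triangles replicate 2. The genotypes overlap at all 11 genes, a contrast that the rule limits.

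Among all 109 tested genes of the cell division list, edgeR's quasi-likelihood test between the genotypes called 2 higher in the mutant and 1 lower, against 23.1% of all 4567 genes tested called in either direction. The 3 called genes were not members. The dynein regulator gene nud-2 had a log2 difference of 0.85 (adjusted p = 0.0132) and the cyclin E gene cye-1 one of 0.69 (adjusted p = 0.0433), while lis-1, another dynein regulator, fell by 0.90 on the log2 scale (adjusted p = 0.0200). The median log2 difference of the list was 0.03, beside -0.08 over all genes tested. The list includes the members, whose difference the rule limits, and the numbers are a description.

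Genes of the small RNA pathway itself also drew abundant reads. Of 84 measured genes in a list of small RNA and RNAi genes, 5 were members and 3 were abundant with a ratio outside the range. The most abundant was eri-6, which encodes a helicase of the ERGO-1 siRNA pathway, with 2352 and 2456 RPM in the mutant on oma-1 RNAi and 2672 and 2659 RPM on L4440, against 2223 and 2509 RPM in wild type on oma-1 RNAi and 1840.0 and 2842 RPM on L4440. Wild type on L4440 held both the lowest and the highest of the 8 values. Its exons in the count files overlap T01A4.9 and C41D11.6, and C41D11.6 itself averaged 390.1 ± 73.5 RPM in the mutant and 648 ± 16.8 RPM in wild type (SD, n = 4 each).

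The Argonaute genes among the members were wago-4, prg-1 and ppw-2. WAGO-4 is the Argonaute of Z granules that carries inherited silencing, and its gene had 1445 and 1182 RPM in the mutant on oma-1 RNAi and 1452 and 1139 RPM on L4440, against 1492 and 993 RPM in wild type on oma-1 RNAi and 1558 and 1034 RPM on L4440. The mean ratio was 1.03, and every mutant library lay within the range of the wild-type libraries. The Piwi gene prg-1, whose protein binds piRNAs, averaged 1214 ± 255 RPM in the mutant and 1261 ± 241 RPM in wild type, and ppw-2, which encodes another germline WAGO protein, averaged 713 ± 143 RPM in the mutant and 793 ± 164 RPM in wild type. The nuclease gene parn-1 trims piRNA 3′ ends in this species, and its reads averaged 1266 ± 84.3 RPM in the mutant and 1091 ± 250.4 RPM in wild type. Of the 63 tested genes of the list, 6 were called higher in the mutant and 2 lower, beside 11.3% and 11.8% of all genes tested. Of 42 measured germ granule genes, wago-4 and prg-1 were the 2 members. Of 36 tested, 2 were called lower in the mutant, beside 11.8% of all genes tested, and 0 higher, beside 11.3%. The 2 were gls-1 and pid-2, which is the mutated gene itself.

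Y37E11B.2 was the 1 member among 27 measured loci listed as ERGO-1 class siRNA targets, a class in which 9 of 19 tested loci were called lower in the mutant, beside 11.8% of all genes tested, and none higher, beside 11.3%. It averaged 2146 ± 519 RPM in the mutant and 2488 ± 212 RPM in wild type, with a ratio of 0.863. On oma-1 RNAi alone the ratio was 0.735 and on L4440 alone 0.974. Its exons overlap Y37E11B.1 on the same strand. No member was in the list of 19 measured nuclear silencing targets and repeats, of which 4 were abundant with a ratio outside the range.

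The members also included chromatin and chromosome genes. Of 146 measured chromatin genes, 3 were members: zfp-1, an AF10 homolog, averaged 1218 ± 88.99 RPM in the mutant and 1466 ± 129 RPM in wild type. This gene was 1 of only 2 members at which no mutant library overlapped a wild-type library, with 1121 and 1234 RPM in the mutant on oma-1 RNAi and 1332 and 1183 RPM on L4440, against 1438 and 1408 RPM in wild type on oma-1 RNAi and 1654 and 1365 RPM on L4440. All wild-type values were above all mutant values. The other was C08F11.7, with 626 and 753 RPM in the mutant on oma-1 RNAi and 680.5 and 738 RPM on L4440, against 602 and 552 RPM in wild type on oma-1 RNAi and 576 and 597 RPM on L4440, where all mutant values were higher. Over all genes tested, the values did not overlap at 26% of genes. The rule limits this contrast, so nothing is read from the smaller share among the members.

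The zinc finger gene mep-1, whose product works with the LET-418 remodelling complex, averaged 753 ± 185 RPM in the mutant and 779 ± 152.3 RPM in wild type, and the chromodomain gene cec-6 averaged 707 ± 164 RPM in the mutant and 614 ± 57.3 RPM in wild type. In the chromatin list, 6 of 112 tested genes were called higher in the mutant, beside 11.3% of all genes tested, and 7 lower, beside 11.8%. Of 64 measured meiotic chromosome genes, the HORMA-domain axis gene htp-1 was the 1 member, with 622 ± 98.8 RPM in the mutant and 580.2 ± 71.6 RPM in wild type, near the floor. Members outside these lists with chromosomal roles were top-2, DNA topoisomerase II, with 1094 ± 159.9 RPM in the mutant and 1197 ± 221 RPM in wild type, and T12E12.3, which the annotation names tebp-2, a telomere-binding protein, with 1328 ± 215 RPM in the mutant and 1305 ± 310.3 RPM in wild type. The values of the genotypes overlapped at each of these 5 genes.

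Of 58 measured oocyte, eggshell and maternal genes, 3 were members. They were dhc-1, described above, egg-6 and let-99. The gene egg-6, which encodes an extracellular leucine-rich repeat protein known from the lining of the excretory duct, averaged 1026 ± 129 RPM in the mutant and 1094 ± 261 RPM in wild type, and let-99, a spindle positioning gene of the early embryo, averaged 776 ± 143 RPM in the mutant and 735 ± 91.8 RPM in wild type. None of the 47 tested genes of the list was called between the genotypes, beside 23.1% of all genes tested. The list includes members, whose difference the rule limits, so this count is a description. None of the 25 germline-enriched marker genes and none of the 66 measured germline translational regulators was a member. The marker genes include glh-1, pgl-1, pgl-3 and csr-1, which the rule left out by name and which could not be members.

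Of 164 measured translation and RNA processing genes, 3 were members. The largest subunit of RNA polymerase II is encoded by ama-1, with 837 ± 128 RPM in the mutant and 906 ± 143 RPM in wild type. The eIF5A homolog iff-2 had 724 ± 73.0 RPM in the mutant and 749 ± 91.9 RPM in wild type, and the alanyl-tRNA synthetase gene aars-2 had 686 ± 119.3 RPM in the mutant and 677 ± 65.5 RPM in wild type. All 3 overlapped between the genotypes. Of 97 measured ubiquitin and proteasome genes, eel-1, a HECT ubiquitin ligase, was the 1 member. The lists of sperm, muscle, intestine, neuron and cuticle genes held no member.

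Beyond the lists stood genes with varied roles. Motor and membrane genes included hum-2, a class V myosin, with 1237 ± 344 RPM in the mutant and 1196 ± 343 RPM in wild type, pezo-1, a Piezo mechanosensitive channel, with 973 ± 118 RPM in the mutant and 954 ± 181 RPM in wild type, and aex-6, the RAB-27 small GTPase, with 1759.5 ± 267 RPM in the mutant and 1718 ± 399.6 RPM in wild type. The formin gene inft-2 averaged 1732 ± 289 RPM in the mutant and 1994 ± 378 RPM in wild type, and the RhoGAP gene rga-3, which acts on the cortex of the early embryo, averaged 915 ± 136 RPM in the mutant and 1076 ± 151 RPM in wild type. Metabolic and stress genes included the mitochondrial chaperonin gene hsp-60, the glutathione peroxidase gene gpx-8, the phosphatidylinositol synthase gene pisy-1 and the amine N-methyltransferase gene anmt-1, with mutant means of 717, 1039, 725 and 1316 RPM and wild-type means of 821, 938, 711 and 1417 RPM in the same order. Signalling genes included ckk-1, a calmodulin-dependent kinase kinase, and pvf-1, a growth factor of the PDGF and VEGF family, with mutant means of 829.7 and 686 RPM and wild-type means of 848 and 710.4 RPM. At each of these genes the genotypes overlapped.

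The members with a sequence name only, 27 in all, covered the whole range of levels. Below the most abundant of them, already given, Y79H2A.4 averaged 1707 ± 242 RPM in the mutant and 1749 ± 469 RPM in wild type, T27F6.8 averaged 1546 ± 184 RPM in the mutant and 1587 ± 213 RPM in wild type, and F41B5.1 averaged 1322 ± 110.3 RPM in the mutant and 1405 ± 207 RPM in wild type. C38D4.7 was among the members with higher ratios, with 1314 and 1593 RPM in the mutant on oma-1 RNAi and 1068 and 1724 RPM on L4440, against 966 and 1375 RPM in wild type on oma-1 RNAi and 1163 and 1269 RPM on L4440. Its lowest library was in wild type on oma-1 RNAi and its highest in the mutant on L4440, and the genotypes overlapped. At the low end stood F44F1.4, with 579 ± 24.4 RPM in the mutant and 658 ± 110.0 RPM in wild type, T07A9.14, with 574 ± 49.7 RPM in the mutant and 674 ± 185 RPM in wild type, and ZC123.1, with 558 ± 41.8 RPM in the mutant and 631 ± 91.1 RPM in wild type. T27F6.8 and ZC123.1 each overlap another gene on the opposite strand.

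Exon length did not enter the rule, nor did read density, although the floor on RPM bears on it. Exon length in the count files ran from 321 to 13939 bases with a median of 1716 bases. RPKM (RPM per kilobase of exon), a level per length, ran from 57.1 at eel-1 to 7327 at T26E3.7, with a median of 644. The 6 densest members were T26E3.7, Y71A12B.10 (6167), K08F11.1 (5735), Y105E8A.28 (4002), sqst-1 (3058) and Y79H2A.4 (2879.6), all in RPKM. At the other end were long genes: after eel-1 came dhc-1 (64.7), pezo-1 (116.05), ama-1 (144), aars-2 (196) and hum-2 (201). RPKM divides RPM by exon length, so low density at long genes largely restates their length. The densest of the 74 genes was 321 bases long and the least dense was 13213 bases long. Across the members, exon length and mean RPM had a Spearman correlation of -0.08 (n = 74), a description over genes of the same libraries.

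Exon length and density at the abundant autosomal genes with a ratio outside the range are given as a description with no test. Median exon length was 1716 bases for the members, 1920 bases for the 28 genes with a higher ratio and 761 bases for the 44 genes with a lower ratio. Median density was 644 for the members, 813 for the genes with a higher ratio and 2548 for those with a lower ratio, in RPKM. The quartiles of density were 331 and 1250.1 for the members, 556 and 1248 for the genes with a higher ratio and 1640 and 3510.3 for those with a lower ratio. A gene name, in place of a sequence name only, was held by 63.5% of the members, 60.7% of the genes with a higher ratio and 22.7% of those with a lower ratio.

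**Figure D3:**
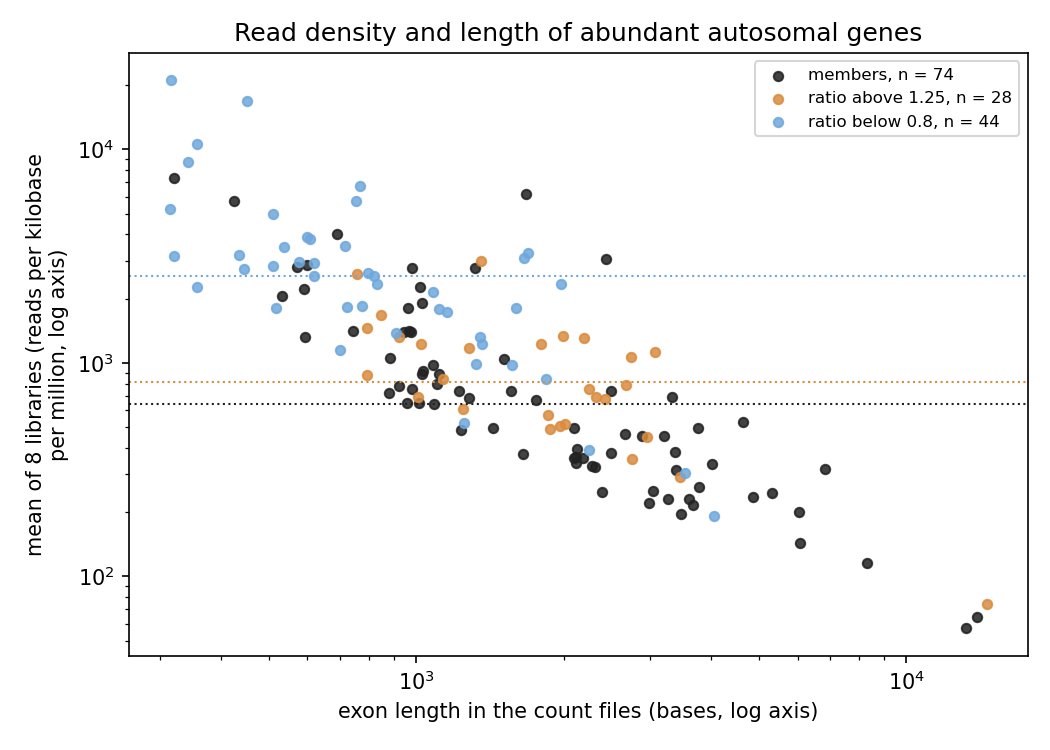
Read density (mean of 8 libraries, RPKM, vertical log axis) against exon length (bases, horizontal log axis) for the 146 abundant autosomal genes, with members in black and genes with a higher or lower ratio in orange and blue. Dotted lines mark the medians of 644 for members, 813 for the genes with a higher ratio and 2548 for those with a lower ratio.

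By chromosome, 24 members lay on I, 8 on II, 18 on III, 18 on IV and 6 on V. Protein-coding genes made up 72 of the 74, and the other 2, Y37H9A.2 and Y52B11A.18, were annotated as pseudogenes. Exons of 15 members overlapped those of another gene, on the opposite strand at 10, on the same strand at 3 and on both at 2. Within 20 kb of each other lay 3 pairs of members. The genes snrp-200 (12726963 to 12736910) and pisy-1 (12737032 to 12738334) are neighbours on the same strand of chromosome II with a gap of 121 bp, and T12E12.3 (5541607 to 5544765) and cec-6 (5544860 to 5548459) are neighbours on the same strand of chromosome IV with a gap of 94 bp. The third pair, Y52B11A.18 and Y52B11A.11 on chromosome I, lies 6263 bp apart on opposite strands. The ratio of mutant to wild type was 0.906 at snrp-200 and 1.02 at pisy-1, 1.02 at T12E12.3 and 1.15 at cec-6, and 0.8002 at Y52B11A.18 and 0.880 at Y52B11A.11.

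The limits of the rule cut through a continuous range of values. At the lower limit of the ratio, Y52B11A.18 (0.8002) and K08F11.1 (0.813) were just inside and dmsr-3 (0.7948) and W08F4.12 (0.7947) were just outside. At the upper limit, ubc-19 (1.23), an E2 ubiquitin-conjugating enzyme gene, and sqst-1 (1.22) were inside, and col-111 (1.26) and srt-43 (1.27) were outside. Nearest to a ratio of 1 were eel-1 (0.996), rpi-2 (0.993) and Y111B2A.3 (1.01), which the annotation names herd-1. At the floor, the lowest library was at 508 RPM for Y94H6A.10 and 512 RPM for ZC123.1, and at 490.5 RPM for aspm-1 and 489 RPM for Y14H12B.2, both left out.

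The ratio was also taken on each food alone. On both foods 61 of the 74 members were within the range. On oma-1 RNAi 10 were outside it, from K08F11.1 (0.693), Y52B11A.18 (0.713), Y37E11B.2 (0.735), T26E3.7 (0.747), Y110A7A.21 (0.766), Y52B11A.11 (0.784), lido-18 (0.799) and ppw-2 (0.799) at the low end to ubc-19 (1.32) and Y48G1C.6 (1.35) at the high end. On L4440 3 members were outside it, T07A9.14 (0.763), cdk-1 and sqst-1. The highest of the 8 libraries was 1.23 to 2.30 times the lowest, with a median of 1.66 times. Across the genotype contrast edgeR's quasi-likelihood test called 0 of the 74 members, with a lowest adjusted p of 0.254, while it called 23.1% of all genes tested. At an unadjusted p under 0.05 the count was 0, beside 1413 of 4567 genes tested, and DESeq2 called 0. With the replicate number as a block, 5 members were called, all higher in the mutant, beside 29.8% of all genes tested. They were sqst-1 (log2 difference 0.39, adjusted p = 0.000618), ubc-19 (0.39, adjusted p = 0.00703), C38D4.7 (0.34, adjusted p = 0.0168), parn-1 (0.33, adjusted p = 0.0187) and C08F11.7 (0.36, adjusted p = 0.0260), and nothing is read from these counts because the rule used the same contrast.

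The response to oma-1 RNAi did not enter the ratio, although the floor in every library limits how low a member can be on either food. Averaged over both genotypes, the log2 difference of oma-1 RNAi over L4440 ran from -0.43 to 0.44 over the members, with a median of -0.02 beside -0.01 over all genes tested. The highest value was at Y48G1C.6, a gene with a sequence name only on chromosome I, with 1257 and 1524 RPM in the mutant on oma-1 RNAi, against 675 and 906 RPM in the mutant on L4440. In wild type it had 908 and 1149 RPM on oma-1 RNAi, against 909 and 1013 RPM on L4440. In the mutant both libraries on oma-1 RNAi were above both on L4440, and in wild type the foods overlapped. The lowest value was at the ERGO-1 class locus Y37E11B.2, with 1743 and 1657 RPM in the mutant on oma-1 RNAi, against 2652 and 2535 RPM in the mutant on L4440. In wild type it had 2237 and 2390.0 RPM on oma-1 RNAi, against 2687 and 2639 RPM on L4440. Both libraries on oma-1 RNAi were below both on L4440 in each genotype. Y48G1C.6 and Y37E11B.2 were picked as extremes, and with so few libraries a group such separation can arise by chance. How often the foods separated over all genes tested was not counted, so nothing is read from the separation at these genes.

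By edgeR's quasi-likelihood test with Benjamini-Hochberg adjustment over 4567 genes, 0 of the 74 members were called in the response averaged over the genotypes, beside 0.0438% of all genes tested, and 0 with the replicate number as a block, beside 0.175%. The estimates were 0.44 (SE 0.23) for Y48G1C.6, 0.36 (SE 0.22) for klp-16, -0.34 (SE 0.22) for lido-18 and -0.43 (SE 0.21) for Y37E11B.2, all with an adjusted p that rounds to 1. The value of lido-18 was -0.20 without mutant oma-1 RNAi replicate 1 and -0.20 without wild-type oma-1 RNAi replicate 1. At an unadjusted p under 0.05 there were 0 members by edgeR, beside 136 of 4567 genes tested. DESeq2 gave 1 member and also called 0 after adjustment. In this averaged response the 95% intervals of all 74 members lay within 1 log2 unit of 0, with bounds from -0.87 to 0.91. A change of 2-fold in either direction thus lay outside each member's own interval. These intervals are not adjusted for the number of members and cover the spread between these libraries. Like the other 95% intervals below, they use edgeR's total degrees of freedom. That total adds prior ones, drawn from the spread of all genes tested, to the 4 residual ones. The intervals therefore do not rest on each member's own libraries alone.

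**Figure D4:**
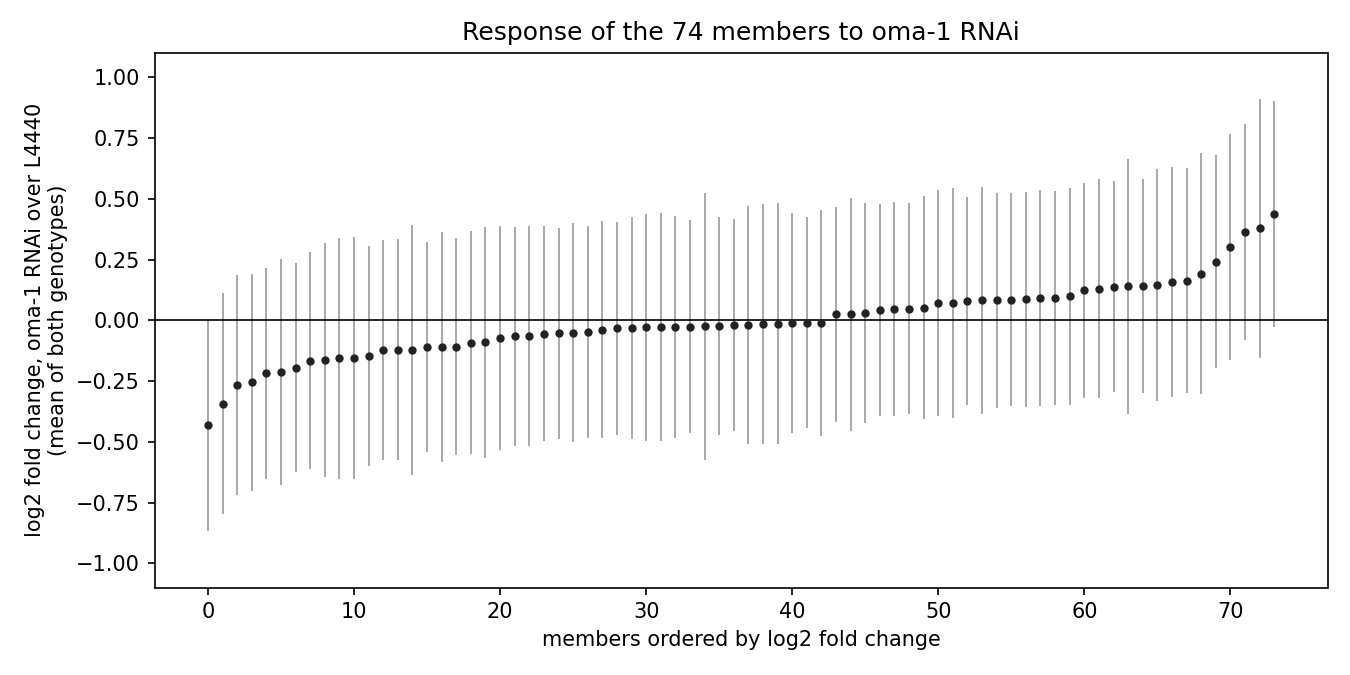
Log2 difference of oma-1 RNAi over L4440, averaged over both genotypes (vertical axis), for the 74 members in order of their estimate (horizontal axis), with points for edgeR estimates and bars for 95% intervals. Estimates run from -0.43 to 0.44 and every interval stays within 1 log2 unit of 0.

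Within the mutant alone, 0 members were called (0.0438% of all genes tested). By edgeR 2 members had an unadjusted p under 0.05, beside 129 of 4567 genes tested, and 2 by DESeq2, which called 0. Those 2 by edgeR were Y48G1C.6, at 0.78 (SE 0.32), and Y37E11B.2, at -0.66 (SE 0.30). Without mutant L4440 replicate 1 the value at Y48G1C.6 was 0.50. The 95% intervals lay within 1 log2 unit of 0 at 66 of 74 members, with bounds from -1.28 to 1.44, so a 2-fold change was inside the interval of the other 8. With the replicate number as a block, both were called, beside 0.263% of all genes tested: Y48G1C.6 rose by 0.78 (SE 0.16, adjusted p = 0.0127) and Y37E11B.2 fell by 0.66 (SE 0.15, adjusted p = 0.0259) on the log2 scale. Under every other alternative run, the adjusted p of both rounds to 1. Within wild type an unadjusted p under 0.05 was found at 0 members, beside 135 of 4567 genes tested. Called members numbered 0 (0.0438% of all genes tested), and 0 by DESeq2. With the replicate block the count in wild type was also 0, beside 0.526% of all genes tested. The intervals in wild type lay within 1 log2 unit of 0 at 72 of 74 members, with bounds from -0.99 to 1.15.

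The difference between the food responses, mutant minus wild type, was tested as an interaction and called 0 members, beside 0% of all genes tested by edgeR. No member had an unadjusted p under 0.05, DESeq2 called 0, and the replicate block gave 0, beside 0.0438% of all genes tested. The values farthest from 0 were -0.68 (SE 0.45) at T26E3.7 and 0.68 (SE 0.45) at Y48G1C.6, and both moved by more than 1.5 times when 1 library was left out. T26E3.7 was at -0.24 without wild-type L4440 replicate 1 and at -1.22 without wild-type L4440 replicate 2. Y48G1C.6 was at 0.40 without mutant L4440 replicate 1, at 0.42 without wild-type oma-1 RNAi replicate 1 and at 1.02 without wild-type oma-1 RNAi replicate 2. For T26E3.7 the libraries held 2010.2 and 1779 RPM in the mutant on oma-1 RNAi, against 2763 and 2593 RPM in the mutant on L4440, and 2616 and 2453 RPM in wild type on oma-1 RNAi, against 1665 and 2938 RPM in wild type on L4440. The foods did not overlap in the mutant and overlapped in wild type, where the 2 libraries on L4440 were the lowest and the highest of all 8. T26E3.7 was likewise picked as an extreme, so nothing is read from the separation in the mutant. The 95% intervals of this difference lay within 1 log2 unit of 0 at 21 of 74 members, and at the other members the interval included a difference of 2-fold between the responses.

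Levels of these genes also differed between libraries of different replicate number, a comparison added after the data were seen. In RPM, the library numbered 1 was higher than the library numbered 2 in all 4 groups at 22 members, beside 19.9% of all genes tested, and lower in all 4 groups at 24 members, beside 11.7%. The AT-hook protein gene hmg-12 had the largest value in favour of replicate 1, with 1231, 1475, 1419.6 and 1168 RPM in the libraries numbered 1 (mutant on oma-1 RNAi, mutant on L4440, wild type on oma-1 RNAi, wild type on L4440), against 655, 818, 737 and 912 RPM in the libraries numbered 2 in the same order. No library numbered 2 reached the lowest library numbered 1. At hum-2 the same order gave 1620.4, 1434, 1593 and 1360.2 RPM, against 967, 928, 989 and 842 RPM. On the other side, Y94H6A.10 had 512, 636, 508 and 536 RPM in the libraries numbered 1, against 881, 716, 923 and 965 RPM in those numbered 2. The libraries numbered 1 and 2 did not overlap at either gene.

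With the replicate number as a term in edgeR's quasi-likelihood model of all 8 libraries, 31 of the 74 members were called, beside 11.9% of all genes tested. Replicate 1 was higher at 6 members, beside 2.91% of all genes tested, and replicate 2 at 25 members, beside 9% of all genes tested. Among the 72 abundant autosomal genes outside the ratio range 39 were called, so a high share was not found at the members alone. When 1 library is left out, the other of its group is fitted by its own group mean and adds nothing to this comparison. Runs without either library of the same group are therefore not separate checks. Fewer members were called in each run that left out 1 library, and fewest without a wild-type oma-1 RNAi library. Over all genes tested, the number called was likewise lower in each of these runs and lowest without a wild-type oma-1 RNAi library. The drop was thus not found at the members alone. Without wild-type oma-1 RNAi replicate 1 the log2 difference was 0.57 at hmg-12 and -0.73 at Y94H6A.10, against 0.63 and -0.80 with all 8 libraries.

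The 6 members higher in replicate 1 were hmg-12 (log2 difference 0.63), hum-2 (0.55), klp-19 (0.49), klp-18 (0.44), mep-1 (0.40) and T12E12.3 (0.35). None of these 6 was called without wild-type oma-1 RNAi replicate 1 or without wild-type oma-1 RNAi replicate 2. Without mutant oma-1 RNAi replicate 1, and likewise without mutant oma-1 RNAi replicate 2, hmg-12 was the 1 still called, and 3 were called without mutant L4440 replicate 1 and 2 without mutant L4440 replicate 2. The lowest values among the 25 higher in replicate 2 were at Y94H6A.10 (-0.80), anmt-1 (-0.75), Y55F3AM.14 (-0.67), which the annotation names znf-782, Y71A12B.10 (-0.62), aex-6 (-0.62) and Y79H2A.4 (-0.61). Median exon length was 3124 bases in the first class and 1026 bases in the second, and 2317 bases for the 43 members not called. Median density was 353 RPKM in the first class, 1317 in the second and 377 at members not called. Median RPM was 1134, 1157 and 906 in the same order, so density here largely restates length. Across the 74 members, exon length and the log2 difference of replicate 1 over replicate 2 had a Spearman correlation of 0.56, a description over genes of the same libraries. Cell division genes accounted for 2 of the 6 higher in replicate 1, for 0 of the 25 higher in replicate 2 and for 9 of the 43 not called.

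The split between the directions depended on scaling. The median over all genes tested was -0.03 with TMM scaling and 0.11 with library totals, and the median over the members was -0.14 with TMM scaling and 0.00 with library totals. Relative to the median over all genes, the members' median was lower under both scalings. With library totals, 20 members were higher in replicate 1 and 10 in replicate 2, against 6 and 25 with TMM scaling. With DESeq2 size factors 5 were higher in replicate 1 and 28 in replicate 2. Over all 4567 genes tested, 326 were higher in replicate 1 and 214 in replicate 2 with library totals. The counts over all genes were 133 and 411 with TMM scaling and 104 and 490 with DESeq2 size factors. The shift with scaling was thus not found at the members alone. What the replicate numbers share is not stated in the labels, and its part in the differences was not tested. The pooled SD of log2 RPM between the 2 libraries of a group was largest at hmg-12 (0.57), Y94H6A.10 (0.51) and hum-2 (0.49), and smallest at Y37E11B.2 (0.05), cpn-4 (0.09), a calponin-family gene, and C08F11.7 (0.11), with a median of 0.27 over the members.

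**Figure D5:**
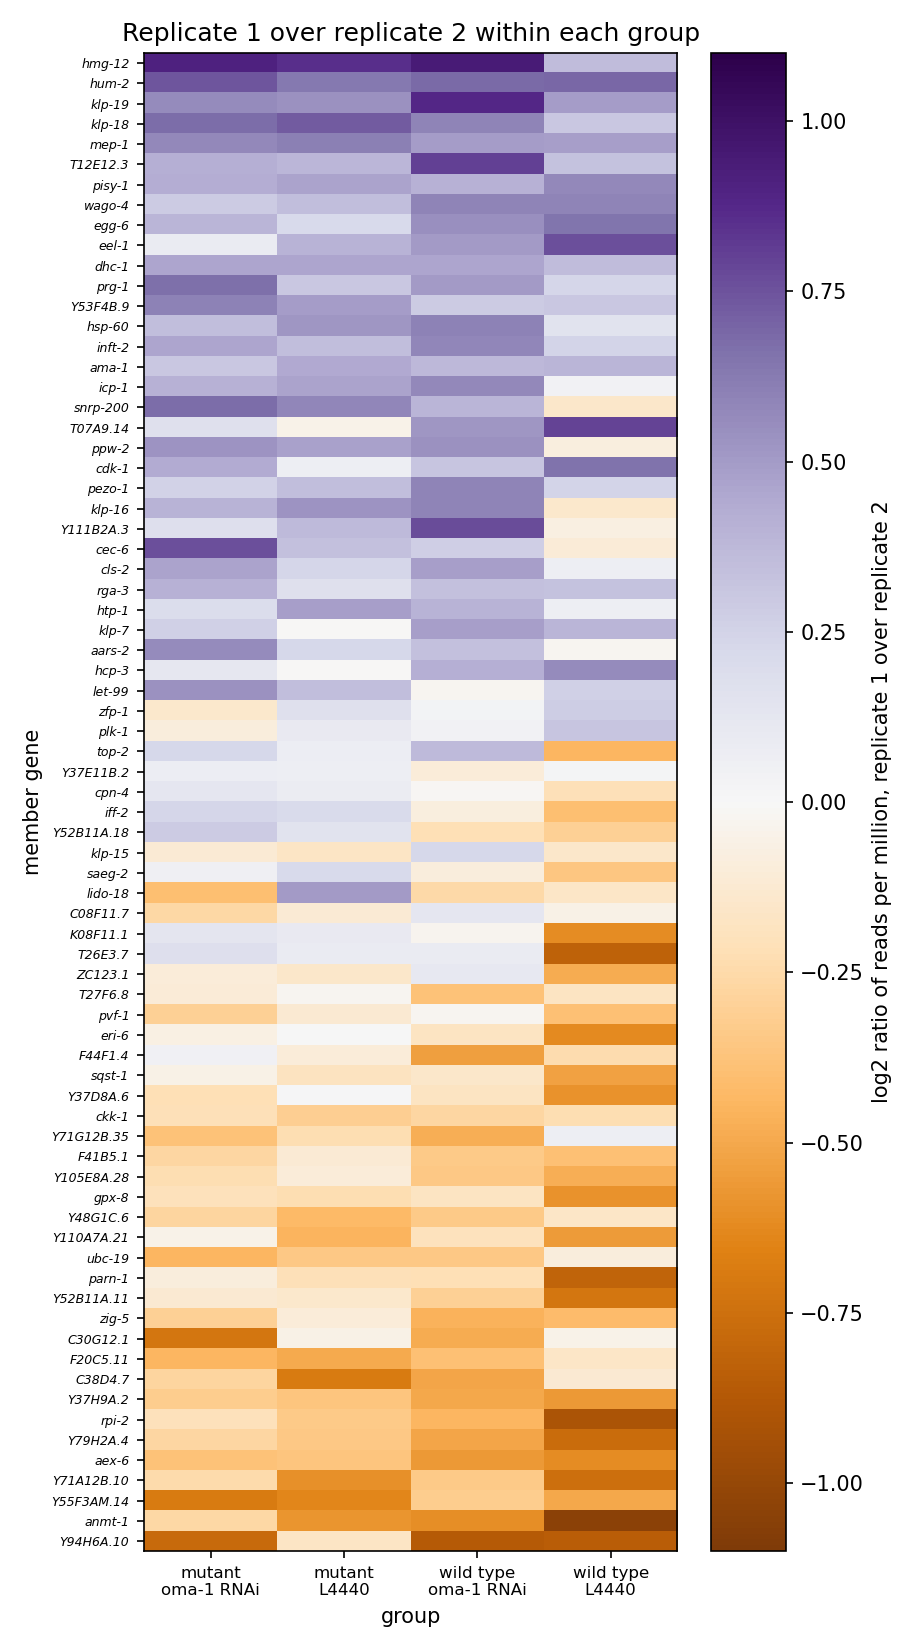
Log2 ratio of RPM in replicate 1 over replicate 2 (colour) for each of the 74 members (vertical axis, in order of the edgeR estimate) in the 4 groups (horizontal axis). hmg-12, at the top, was higher in replicate 1 in all 4 groups (purple), and Y94H6A.10, at the bottom, was higher in replicate 2 in all 4 (orange).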

How the data were processed

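Small RNA reads were counted per gene in 8 libraries of whole animals. The authors deposited raw read counts per gene, 1 table per library. Reads were trimmed with cutadapt 1.14, aligned with TopHat2 2.1.1 to WBcel235 and counted with featureCounts 1.6.0, per the submitters' processing notes. Whether strand was used, whether reads were chosen by length or first base, and how reads matching more than 1 place were counted is not given in the sources used here. Near-identical and overlapping genes are therefore uncertain.

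From the counts, RPM (reads scaled to the column total) and, with the files' exon lengths, RPKM (RPM per kilobase of exon) were computed. Library totals were taken over all 20191 genes. TMM factors were computed on the 4567 genes that passed filterByExpr with a minimum count of 10, and these were tested, all 74 members among them. The test was edgeR 4.0.16 (R 4.3.3) quasi-likelihood with TMM scaling and 4 group means (4 residual degrees of freedom), with Benjamini-Hochberg adjustment over all genes tested and calls under 0.05. Alternatives were DESeq2 1.42.0, library totals, DESeq2 size factors, no filter, a replicate block and leaving out each library.

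Deviations from the group means of same-numbered libraries correlated at 0.17 to 0.35 in all 6 pairs of groups, although the labels do not say what a number shares. Estimates, errors and intervals of the food and genotype contrasts come from the fit without the replicate block, except where the block is named. The value with the block stands beside each count of members called in these contrasts. Estimates of replicate 1 over replicate 2 come from the fit with the replicate term. With 2 libraries a group, their deviations mirror each other.

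Genes named were the 12 most abundant members, the 6 densest and 6 least dense, those nearest to 1 and to the limits, those with the smallest p in the food contrasts, those with the largest and smallest replicate spread, members of the gene lists and neighbouring members. Other members were named after their values were seen. The members and lists were chosen with earlier results of these data known, so no count over a list is independent support. Coordinates are those of the count files and count from 1.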

Additional observations from a re-analysis of the deposited data

How the results depend on the processing

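The counts of members called in the food responses stayed at 0 under DESeq2, library totals, DESeq2 size factors, no filter and without each library in turn. The replicate block gave 2 members called in the mutant (Y48G1C.6 and Y37E11B.2) and 5 in the genotype contrast, and changed no other count of members called in the food contrasts. Both of those food calls rest on the block alone. In the comparison of replicate 1 with replicate 2, added after the data were seen, the count of 31 ranged from 4 to 28 when 1 library was left out. The number of members followed the thresholds: a floor of 250 RPM gave 177 genes, a floor of 1000 RPM gave 20, a floor on the mean gave 105, a narrower ratio limit of 0.9 and its inverse gave 47 and a wider one of 0.67 gave 110. TMM-scaled values gave 81 genes, of which 68 were shared with the 74, and leaving out 1 library gave 73 to 82. Of 200 further values for single genes, 178 kept their side of the threshold, 20 lost it, 2 gained it and 0 changed direction. All 148 alternative levels of named members moved by less than 1 SD. With 2 libraries a group and 68.5 reads at the floor in the shallowest library, the 95% interval of the difference between the food responses stayed within 2-fold at 21 of 74 members only.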
